A study of Zea mays with 6 samples.

Results

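The maize genes described here code for the proteases linked with endosperm maturation and cell death: metacaspases, vacuolar-processing enzymes, subtilisin-like proteases, carboxypeptidases, aspartic proteases and cysteine proteases. They were taken by words in the gene description that the deposited tables carry (the family names above, without any description that contains "inhibitor"), which gave 300 of 39179 genes. The word rule used no measured value, though the genes were chosen with earlier results of these data known. RNA was sequenced from developing endosperm at 20 days after pollination, in 3 libraries of wild type, the inbred line B73, and 3 libraries of nacRNAi, a line named Ni4 that is described as sibling material in the same inbred and carries an RNA interference construct against NAC transcription factor genes. RNA interference lowers the transcripts that match such a construct. The labels name neither the promoter that drives the construct, nor the number of transformation events behind the line, nor whether kernels were pooled. Separate plants for the libraries are also not stated, so the p-values below measure the spread between these libraries, which may be technical.

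The starchy part of the cereal endosperm fills with starch and storage protein and then dies while it stays in the seed. Vacuolar-processing enzymes are asparagine-specific cysteine proteases that cut storage protein precursors and other vacuolar proteins, and in other plants they take part in vacuole-mediated cell death. Metacaspases are distant relatives of animal caspases that cut after arginine or lysine, and several are linked with developmental cell death in plants. Papain-type cysteine proteases, serine carboxypeptidases and vacuolar aspartic proteases break down proteins in the vacuole, and subtilisin-like proteases act mostly outside the cell or in the secretory pathway.

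The libraries held 55812999 to 69670876 gene counts. Levels are given as CPM, the counts of a gene relative to the size of its library, scaled by TMM, the trimmed mean of M-values. Genes were called at a Benjamini-Hochberg adjusted p under 0.05 in edgeR's quasi-likelihood test over 22259 tested genes. The gene known as NAC130 (Zm00001d008403) had 1337, 1335 and 1055 CPM in wild type and 238, 227 and 222 CPM in nacRNAi (log2 fold change -2.44 with SE 0.10 and adjusted p = 4.22e-06 in edgeR). The gene known as NAC128 (Zm00001d040189) had 309, 359 and 272 CPM against 248, 300 and 284 CPM, a log2 fold change of -0.18 that was not called (adjusted p = 0.245 in edgeR) and was above 0 without TMM (0.35) or on deposited FPKM, fragments per kilobase scaled to depth (0.54). Of all tested genes, 24.0% were called lower and 23.2% higher. Zein genes, the markers of storage endosperm, were called lower in 16 of 17 cases, and their summed level was 290488 to 330411 CPM in wild type and 105035 to 118893 CPM in nacRNAi. Embryo and oil body genes were called lower in 10 of 11 cases and higher in 1, with sums of 1876 to 1940 CPM in wild type and 1133 to 1414 CPM in nacRNAi. Basal transfer layer genes were called lower in 1 of 4 tested cases (sums of 25.5 to 65.4 and 15.1 to 24.0 CPM), aleurone genes in 2 of 3 (118 to 136 and 102 to 109 CPM), and none of the 5 embryo surrounding region genes reached the filter. With library totals in place of TMM, 13 zein genes and 5 embryo and oil body genes were called lower, 1 embryo and oil body gene higher, and 3 aleurone genes higher and none lower. On that scale 50.5% of all tested genes were called higher and 9.00% lower. The part of these tissues in the protease values was not tested. In a bulk sample, fewer cells of a type and less RNA per cell cannot be told apart.

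Of the 300 protease genes, 145 passed the filter on low counts and were tested. Of the 155 that were not tested, 78 had no count in any library, and the highest mean of a line among the rest was 0.316 CPM. Among those tested, 34 were called higher in nacRNAi and 37 lower. The 71 called proteases are 49.0% of those tested, beside 47.3% of all tested genes, and by direction they are 23.4% higher and 25.5% lower beside 23.2% and 24.0% of all tested genes. The share of protease genes called was thus close to that of the whole table. A change of at least 2-fold was called for 43 proteases, 18 higher and 25 lower, which is 29.7% of those tested beside 17.6% of all tested genes. The libraries of the lines did not overlap for 79 proteases (54.5%, beside 59.2% of all tested genes). The median log2 fold change was -0.16 for the proteases and 0.00 for all tested genes.

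The classes were split between the directions. Of 52 tested aspartic proteases, 7 were called higher and 16 lower, and of 37 carboxypeptidases 7 higher and 12 lower. Of 28 cysteine proteases 8 were called higher and 5 lower, and of 19 subtilisin-like proteases 9 higher and 2 lower. Of 7 metacaspases 3 were called higher and 1 lower, and of 2 vacuolar-processing enzymes 1 was called lower. Among all tested genes 23.2% were called higher and 24.0% lower. The shares were 13.5% and 30.8% in aspartic proteases, 18.9% and 32.4% in carboxypeptidases, and 28.6% and 17.9% in cysteine proteases. They were 47.4% and 10.5% in subtilisin-like proteases, 42.9% and 14.3% in metacaspases, and 0.0% and 50.0% in vacuolar-processing enzymes. The median log2 fold changes in the same order were -0.47, -0.30, 0.15, 0.11, 0.32 and -0.87. Differences between classes were not tested.

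**Figure D1:**
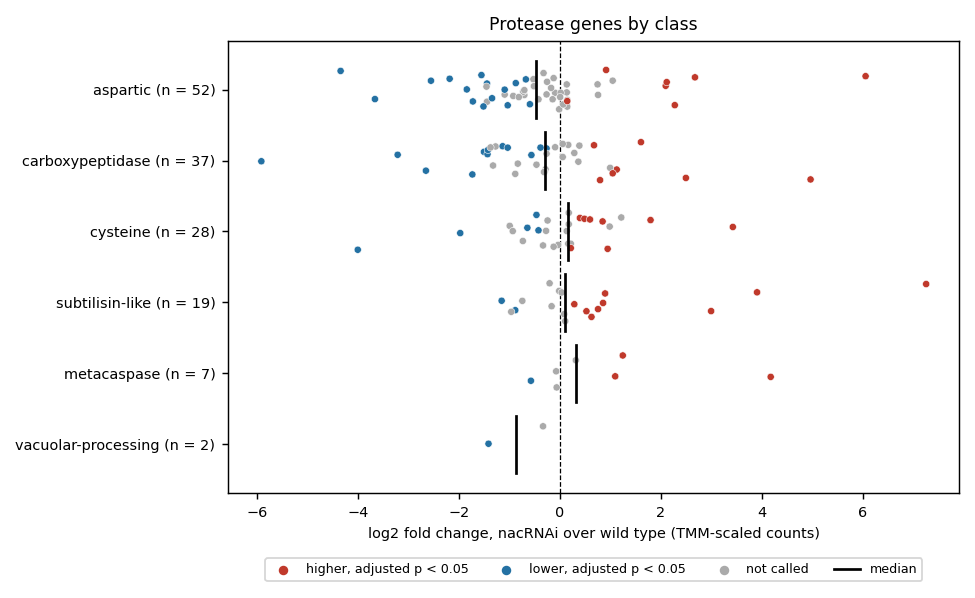
Log2 fold change of nacRNAi over wild type (horizontal axis, TMM-scaled counts, edgeR) for each of the 145 tested protease genes, in 1 row per class, with red points called higher, blue points called lower, grey points not called and a black bar at the class median. Every class with more than 2 tested genes holds calls on both sides of 0, and the medians run from -0.87 in vacuolar-processing enzymes to 0.32 in metacaspases.

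Among the metacaspases, the one with the largest rise was a putative metacaspase family gene (Zm00001d047211, chromosome 9, 122171041 to 122173225, minus strand). It had 1.34, 1.60 and 1.36 CPM in wild type and 40.1, 23.3 and 14.8 CPM in nacRNAi, a log2 fold change of 4.18 (SE 0.42, adjusted p = 0.000524 in edgeR). The wild-type libraries lay close together, while the nacRNAi libraries all lay above them and differed among themselves by more than 2-fold. A gene described as Metacaspase-6 (Zm00001d010675, chromosome 8, 123944597 to 123946927, plus strand) rose from 1.21, 1.39 and 1.42 CPM to 2.52, 2.77 and 4.30 CPM (log2 fold change 1.25 with SE 0.26 and adjusted p = 0.00545 in edgeR), again without overlap. A second gene of that description (Zm00001d043195) had 2.74, 7.08 and 6.76 CPM in wild type and 14.2, 10.9 and 10.4 CPM in nacRNAi. The difference of 1.10 on the log2 scale (SE 0.36, adjusted p = 0.045 in edgeR) was no longer called with any of 5 of the 6 libraries left out, wild-type library 1 being the exception (adjusted p = 0.0522 to 0.122).

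The remaining metacaspases differed little on the CPM scale. Metacaspase-1 (Zm00001d029980), whose Arabidopsis namesake is a type I metacaspase of the pathogen response, had 3.43, 3.12 and 2.98 CPM in wild type and 2.47, 1.94 and 1.99 CPM in nacRNAi. It was called lower (log2 fold change -0.57 with SE 0.19 and adjusted p = 0.0381 in edgeR), but this call was lost without any one of 5 of the 6 libraries (adjusted p = 0.0585 to 0.122), nacRNAi library 1 being the exception, and the change was above 0 on deposited FPKM (0.18). The type II metacaspase Zm00001d010672, a neighbour of Zm00001d010675 on chromosome 8, had a log2 fold change of -0.06 (adjusted p = 0.791 in edgeR). The family members Zm00001d047078 and Zm00001d052433 had 0.32 (adjusted p = 0.209 in edgeR) and -0.07 (adjusted p = 0.844 in edgeR). For each of these 3 genes the wild-type mean was between 2.67 and 6.57 CPM.

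The beta-isozyme of vacuolar-processing enzyme (Zm00001d002824, chromosome 2, 23887917 to 23893357, plus strand), a type known from storage protein processing in Arabidopsis seeds, fell. It had 214, 177 and 193 CPM in wild type and 73.6, 77.9 and 68.6 CPM in nacRNAi, a log2 fold change of -1.41 (SE 0.09, adjusted p = 1.75e-05 in edgeR). The lowest wild-type library was more than 2-fold above the highest nacRNAi library. The end of this gene overlaps a gene model on the other strand (Zm00001d002825), which had 0 to 10 counts in each library. Vacuolar processing enzyme 1 (Zm00001d017399, chromosome 5, 194914731 to 194921330, minus strand) had 34.1, 34.4 and 27.8 CPM in wild type and 29.1, 21.6 and 25.6 CPM in nacRNAi. Its libraries overlapped between the lines, and its log2 fold change of -0.33 (SE 0.13) missed the threshold (adjusted p = 0.0663 in edgeR). It passed with DESeq2 (adjusted p = 0.045) and with the gene length trend removed. In edgeR it also passed without nacRNAi library 1 (adjusted p = 0.0305) or wild-type library 3 (0.0338). Its direction turned with library totals (0.19) and on FPKM (0.28). The gamma-isozyme Zm00001d009759 had 0, 1 and 7 counts in wild type and 11, 8 and 3 counts in nacRNAi and was not tested.

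The aspartic proteases held the proteases with the highest levels per length, measured as the deposited FPKM. In wild type the highest level of any protease gene was that of a eukaryotic aspartyl protease family gene (Zm00001d007753, chromosome 2, 238893820 to 238895010, minus strand), at 281 FPKM ± 46.0 (SD, n = 3), which is 20.7% of the summed FPKM of all 300 genes. In nacRNAi it was at 91.5 FPKM ± 25.6 (SD, n = 3) and 6.79% of the sum. It had 229, 297 and 271 CPM in wild type against 53.6, 52.0 and 30.7 CPM in nacRNAi, a log2 fold change of -2.55 (SE 0.24, adjusted p = 0.000413 in edgeR). All nacRNAi libraries lay far below all wild-type libraries.

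Of 14 tested genes described as Aspartic proteinase A1, a type of vacuolar aspartic protease with a plant-specific insert, 2 were called higher and 3 lower (23.2% and 24.0% of all tested genes). The most abundant, Zm00001d039043 (chromosome 6, 169159820 to 169166340, plus strand), had 571, 639 and 612 CPM in wild type and 627, 611 and 590 CPM in nacRNAi. The libraries of the lines overlapped and the log2 fold change was 0.01 (SE 0.07, adjusted p = 0.957 in edgeR). It was the highest of all protease genes in nacRNAi, at 231 FPKM ± 8.12, beside 184 FPKM ± 14.4 in wild type (each ± SD of 3 libraries). This gene was called higher with library totals (log2 fold change 0.52) and on FPKM (0.33), scales on which the median of all genes was above 0. The second A1 gene in level, Zm00001d009594 (chromosome 8, 72096954 to 72103235, plus strand), went from 323, 328 and 317 CPM to 126, 111 and 119 CPM. The log2 fold change of -1.44 was called (SE 0.07, adjusted p = 5.53e-06 in edgeR), so that genes with the same description and high levels differed in their response. The A1 gene Zm00001d037545 (chromosome 6, 128884696 to 128886147, plus strand), rose from 3.13, 3.39 and 1.71 CPM to 12.4, 13.3 and 14.3 CPM (log2 fold change 2.28 with SE 0.24 and adjusted p = 0.000278 in edgeR).

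The largest falls among aspartic proteases with at least 5 CPM were in family genes without a more precise name. Zm00001d043864 (chromosome 3, 212467687 to 212472046, minus strand) had 18.3, 11.7 and 11.5 CPM in wild type and 0.482, 0.587 and 0.976 CPM in nacRNAi (log2 fold change -4.34 with SE 0.33 and adjusted p = 7.94e-05 in edgeR). Zm00001d003515 (chromosome 2, 46328464 to 46330364, minus strand) had 14.5, 20.2 and 17.0 CPM against 1.46, 1.54 and 1.09 CPM (log2 fold change -3.66 with SE 0.19 and adjusted p = 9.12e-06 in edgeR). In both, every nacRNAi library was more than 5-fold below every wild-type library. All 4 tested genes described as APCB1, an aspartyl protease that in Arabidopsis acts in a basal immunity pathway, were called (47.3% of all tested genes were), 2 in each direction. The higher call of Zm00001d051761 was lost with any library left out (adjusted p = 0.0699 to 0.107), and the lower call of Zm00001d023579 was lost without nacRNAi library 3 (0.0518) or wild-type library 1 (0.0639) or 2 (0.0507). Zm00001d045695 (chromosome 9, 33746028 to 33749898, plus strand) rose from 2.96, 3.25 and 2.08 CPM to 12.1, 11.2 and 12.8 CPM (log2 fold change 2.12 with SE 0.18 and adjusted p = 6.94e-05 in edgeR). Zm00001d004734 fell from 116, 117 and 121 CPM to 57.3, 55.8 and 60.8 CPM (log2 fold change -1.03 with SE 0.06 and adjusted p = 1.43e-05 in edgeR), a gene chosen after its values were seen.

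**Figure D2:**
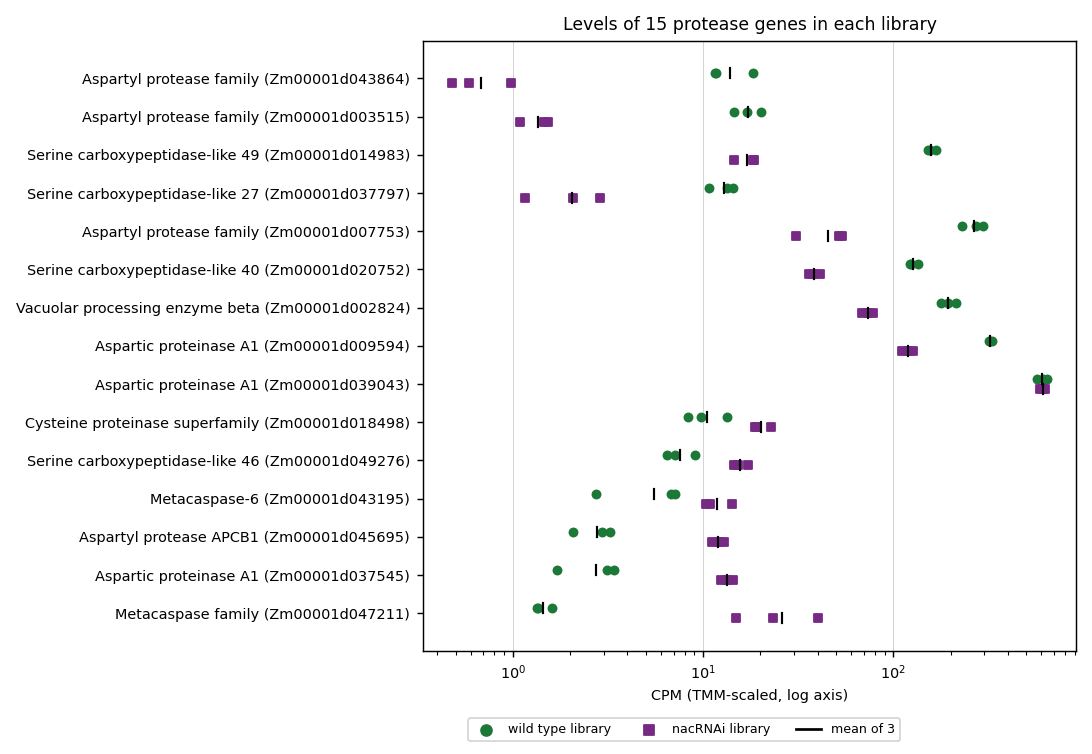
TMM-scaled CPM (horizontal axis, log scale) of 15 named protease genes in each library, green circles for wild type, purple squares for nacRNAi and black ticks at the mean of 3 libraries. The lines do not overlap in 14 of the genes, while Aspartic proteinase A1 Zm00001d039043 lies at 571 to 639 CPM in all 6 libraries.

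Serine carboxypeptidases remove residues from the C-terminal end of proteins, and some members of the serine carboxypeptidase-like family act as acyltransferases instead. The carboxypeptidase with the largest fall at a level of at least 5 CPM was serine carboxypeptidase-like 49 (Zm00001d014983, chromosome 5, 71063270 to 71067861, minus strand). It had 152, 168 and 155 CPM in wild type and 18.2, 14.6 and 18.5 CPM in nacRNAi, a log2 fold change of -3.21 (SE 0.11, adjusted p = 1.7e-06 in edgeR). Serine carboxypeptidase-like 27 (Zm00001d037797) fell from 14.4, 13.3 and 10.8 CPM to 2.88, 2.08 and 1.16 CPM (log2 fold change -2.65 with SE 0.32 and adjusted p = 0.00069 in edgeR). Serine carboxypeptidase-like 46 (Zm00001d049276) moved the other way, from 6.48, 7.14 and 9.04 CPM to 17.3, 15.3 and 14.5 CPM (log2 fold change 1.05 with SE 0.14 and adjusted p = 0.000688 in edgeR). None of these 3 genes had libraries that overlapped between the lines.

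The carboxypeptidase with the highest mean FPKM was a prolyl carboxypeptidase like gene (Zm00001d032472, chromosome 1, 227853798 to 227862240, minus strand). Its libraries were uneven, with 302, 290 and 137 CPM in wild type and 61.4, 101 and 109 CPM in nacRNAi. Wild-type library 3 lay nearer to the nacRNAi libraries than to the other wild-type libraries. The log2 fold change of -1.43 (SE 0.38, adjusted p = 0.0265 in edgeR) was not called when any library other than wild-type library 3 was left out (adjusted p = 0.0598 to 0.081), nor with library totals (0.0834). Of 6 tested serine carboxypeptidase-like 19 genes, 1 was called higher and 3 lower, beside 23.2% and 24.0% of all tested genes. Zm00001d016459 (chromosome 5, 163059296 to 163070333, minus strand) fell from 153, 170 and 170 CPM to 52.4, 66.3 and 56.0 CPM (log2 fold change -1.50 with SE 0.10 and adjusted p = 2.26e-05 in edgeR). Its neighbour Zm00001d016460, of the same description, was at 38.0 CPM ± 5.90 in wild type and 35.7 CPM ± 3.58 in nacRNAi (each ± SD of 3 libraries), a log2 fold change of -0.09 (SE 0.12, adjusted p = 0.581 in edgeR). Zm00001d030172 had 68.9, 64.8 and 70.5 CPM in wild type and 58.0, 46.8 and 52.0 CPM in nacRNAi (log2 fold change -0.38 with SE 0.09 and adjusted p = 0.00801 in edgeR), and its direction turned on deposited FPKM (0.73) and with library totals (0.13).

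A cluster of serine carboxypeptidase-like 40 genes on chromosome 7, from 131176724 to 131227369, held calls in both directions. Zm00001d020752 fell from 124, 135 and 122 CPM to 35.9, 37.8 and 41.1 CPM (log2 fold change -1.73 with SE 0.08 and adjusted p = 4.57e-06 in edgeR). Within the cluster Zm00001d020754 had 57 counts over the wild-type libraries and 1 over the nacRNAi libraries and was called lower (adjusted p = 0.00188 in edgeR). Zm00001d020751 was called higher (log2 fold change 1.61, adjusted p = 0.0266 in edgeR), at a mean of 0.486 CPM in wild type and 1.49 CPM in nacRNAi. That call, the only higher one in the cluster, was lost without nacRNAi library 2 (adjusted p = 0.0708) or 3 (0.0754) or wild-type library 1 (0.0637). The fourth gene, Zm00001d020750, was not tested. How the counting treated reads that match more than 1 gene of the cluster is not stated, and this was not tested. Protease genes within 5 gene positions of another formed 38 such groups with 90 genes, and the chromosome 7 cluster was the only 1 of the 8 groups with at least 2 tested genes in which more than 1 gene was called.

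Of the 28 tested cysteine proteases, which are papain-type enzymes and their relatives, 4 (14.3%, beside 17.6% of all tested genes) were called at 2-fold or more. The 3 with the highest mean FPKM were RD19D, an OTU-like gene and Cysteine proteinase 1. RD19D (Zm00001d006364), a type named for induction by drought in Arabidopsis, was at 37.7 CPM ± 5.86 in wild type and 32.0 CPM ± 6.29 in nacRNAi (each ± SD of 3 libraries), a log2 fold change of -0.24 (SE 0.17, adjusted p = 0.294 in edgeR). The OTU-like gene Zm00001d053822, of a family that removes ubiquitin, had 64.0, 72.6 and 67.7 CPM in wild type and 79.2, 82.9 and 76.3 CPM in nacRNAi. The rise was small (log2 fold change 0.22 with SE 0.07 and adjusted p = 0.0286 in edgeR) and was not called without nacRNAi library 1 or 2, or wild-type library 1 or 3 (adjusted p = 0.0599 to 0.0986). Cysteine proteinase 1 (Zm00001d016446, chromosome 5, 162603198 to 162606546, minus strand) had 73.8, 63.9 and 73.1 CPM in wild type and 48.7, 51.6 and 57.2 CPM in nacRNAi. It was called lower (log2 fold change -0.42 with SE 0.09 and adjusted p = 0.00494 in edgeR), and its direction turned with library totals (0.09) and on FPKM (0.33).

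The cysteine protease with the largest rise at 5 CPM or more, a superfamily gene (Zm00001d018498, chromosome 5, 221848796 to 221852951, minus strand), went from 8.33, 9.79 and 13.3 CPM to 22.7, 19.3 and 18.8 CPM (log2 fold change 0.95 with SE 0.18 and adjusted p = 0.00356 in edgeR). The senescence-specific cysteine protease SAG12, a marker of ageing leaves in Arabidopsis, names 13 of the genes. None of the 13 was tested. Of these, 9 had no count at all, and the 13 genes together held 37 counts over the 6 libraries, with at most 11 in any library for any gene. Of 4 genes described as ATG4a, the cysteine protease that processes the autophagy protein ATG8, 2 were tested and neither was called (log2 fold change -0.03 for Zm00001d001790 and -0.33 for Zm00001d026641, adjusted p = 0.790 and 0.0753 in edgeR). A pair of XCP1 genes, named for a xylem protease of Arabidopsis, were called in opposite directions at under 1 CPM on average in either line (Zm00001d011787 higher, log2 fold change 3.43, and Zm00001d017834 lower, -1.97). The lower call was lost without any library other than wild-type library 2 (adjusted p = 0.0632 to 0.135).

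Subtilisin-like proteases had 9 calls higher among 19 tested genes, or 47.4%, beside 23.2% of all tested genes. With library totals in place of TMM 10 were called higher, or 52.6%, close to the 50.5% of all tested genes. The abundant one named only subtilisin-like protease (Zm00001d034112) was at 43.3 CPM ± 11.9 in wild type and 44.5 CPM ± 6.97 in nacRNAi (each ± SD of 3 libraries), and was not called (log2 fold change 0.04 with SE 0.23 and adjusted p = 0.90 in edgeR). SBT5.3 (Zm00001d020867, chromosome 7, 135064149 to 135071720, plus strand) rose from 31.7, 27.8 and 27.4 CPM to 54.5, 43.0 and 49.6 CPM (log2 fold change 0.76 with SE 0.10 and adjusted p = 0.00068 in edgeR). All its nacRNAi libraries lay above all its wild-type libraries. The 3 tested SBT1.9 genes, of 12 so described, were all called higher. The most abundant of them (Zm00001d027387) had 31.7, 35.8 and 33.4 CPM in wild type and 43.8, 38.8 and 40.7 CPM in nacRNAi (log2 fold change 0.29 with SE 0.08 and adjusted p = 0.0158 in edgeR), a call that was lost without nacRNAi library 1 (adjusted p = 0.0531).

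The other SBT1.9 genes called were near the limit of detection in wild type and at low levels in nacRNAi. Zm00001d037890 had 1 count over the wild-type libraries and 303 over the nacRNAi libraries, with 1.72, 1.36 and 0.879 CPM in nacRNAi. Its call held in every alternative fit. Zm00001d020017 had 0.112, 0.00 and 0.00 CPM in wild type against 0.651, 0.671 and 0.516 CPM in nacRNAi. Higher calls at 5 CPM or more also included SBT2.6 (Zm00001d036483, log2 fold change 0.86), SBT2.1 (Zm00001d043327, 0.90), SBT1.6 (Zm00001d028391, 0.63) and SBT6.1 (Zm00001d045217, 0.53), the last a relative of the Golgi-resident site-1 protease. SBT1.3 (Zm00001d026068, -0.88) and SBT5.6 (Zm00001d043581, -1.15) were called lower, and the direction of SBT1.3 turned on FPKM (0.11). These 6 genes were chosen after their values were seen.

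Levels ranged widely. In wild type 79 of the 300 genes had a mean of at least 1 FPKM, 25 at least 10 FPKM and 2 at least 100 FPKM. In nacRNAi the numbers were 97, 34 and 1. On FPKM the median log2 fold change of all genes was also above 0 (0.22 on log2(FPKM + 1)). Counts of all genes at these cuts are not given here. Of the 6 tested proteases with a mean of at least 100 CPM, 5 were called lower and none higher, with a median log2 fold change of -1.43. Of all 1041 genes at that level 53.9% were called lower and 19.6% higher, with a median of -0.31. Between 10 and 100 CPM, 15 of 42 proteases were called higher and 13 lower, beside 28.5% and 29.8% of all 8825 genes at that level. At under 5 CPM in both lines stood 25 of the 71 called proteases, 13 higher and 12 lower, and these held the most extreme log2 fold changes, from -5.91 to 7.26.

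The level of each class was summed on the count scale with TMM, used for the calls, and as a share of all counts. With TMM the sum over all 300 genes was 3742 CPM ± 146 in wild type and 2620 CPM ± 48.9 in nacRNAi (each ± SD of 3 libraries, as for the sums that follow). Aspartic proteases summed to 1692 CPM ± 95.3 in wild type and 1151 CPM ± 44.2 in nacRNAi, carboxypeptidases to 1095 CPM ± 99.8 and 522 CPM ± 27.6, and vacuolar-processing enzymes to 227 CPM ± 18.7 and 98.9 CPM ± 4.31. Subtilisin-like proteases summed to 211 CPM ± 15.8 and 271 CPM ± 12.6, cysteine proteases to 490 CPM ± 3.98 and 518 CPM ± 4.86, and metacaspases to 26.4 CPM ± 2.07 and 59.3 CPM ± 15.8. On this scale the libraries of the lines did not overlap in any class. The metacaspase sum rested largely on Zm00001d047211, without which it was 24.9 CPM ± 1.99 and 33.3 CPM ± 3.38.

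As a share of all counts, which applies no TMM factor, the 300 proteases took 0.313% ± 0.00567 in wild type and 0.313% ± 0.00383 in nacRNAi. Aspartic proteases took 0.141% ± 0.00754 and 0.138% ± 0.00421, with overlap, where the TMM sums had none. Cysteine proteases took 0.041% ± 0.00136 and 0.0619% ± 0.000548, a wider gap than with TMM. Subtilisin-like proteases took 0.0177% ± 0.00185 and 0.0324% ± 0.00144, carboxypeptidases 0.0914% ± 0.00495 and 0.0624% ± 0.00376, and vacuolar-processing enzymes 0.019% ± 0.00178 and 0.0118% ± 0.000402. Metacaspases took 0.0022% ± 0.000198 and 0.00709% ± 0.00185, or 0.00208% ± 0.000193 and 0.00398% ± 0.000403 without Zm00001d047211. On deposited FPKM the sums over all 300 genes were 1363 ± 85.0 in wild type and 1346 ± 53.5 in nacRNAi.

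**Figure D3:**
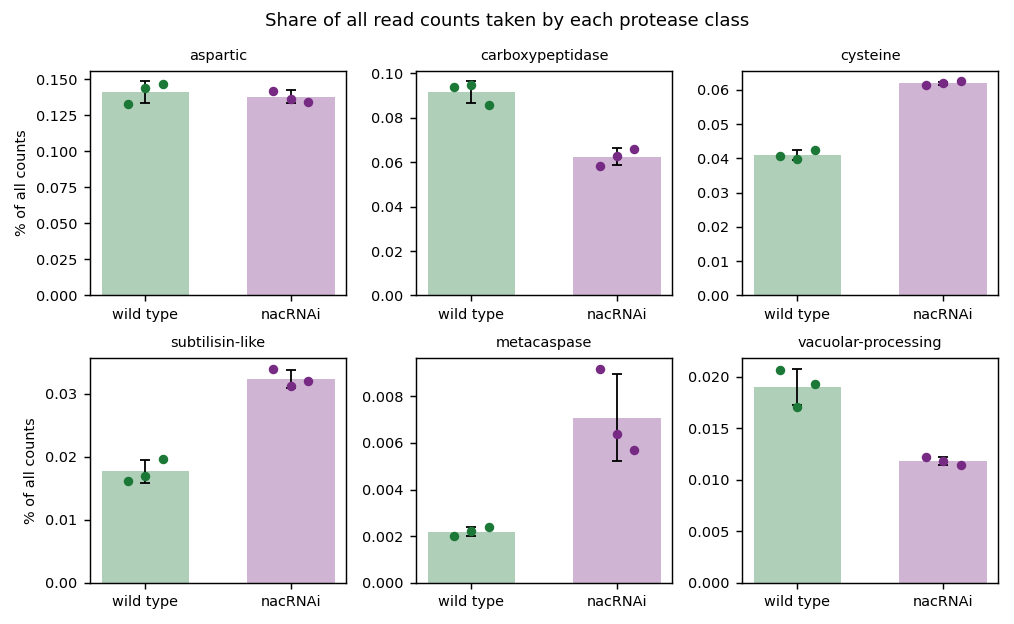
Percent of all counts in a library (vertical axis, from 0, with its own scale in each panel) taken by each of the 6 protease classes, with points for the 3 libraries of each line, bars for the mean and error bars for the SD. Cysteine, subtilisin-like and metacaspase genes take a larger share in every nacRNAi library, carboxypeptidase and vacuolar-processing genes a smaller one, and the aspartic shares overlap at 0.141% and 0.138%, while with TMM the aspartic sums are 1692 and 1151 CPM.

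The balance between higher and lower calls depended on how libraries were scaled. With library totals in place of TMM the median of all tested genes moved to 0.52, and 57 proteases (39.3%) were called higher and 19 (13.1%) lower, beside 50.5% and 9.00% of all tested genes. The protease median was 0.37 there, below that of all genes. By class these medians were 0.84 in metacaspases, 0.67 in cysteine proteases, 0.62 in subtilisin-like proteases, 0.22 in carboxypeptidases, 0.04 in aspartic proteases and -0.35 in vacuolar-processing enzymes. With limma on log2(FPKM + 1), a scale that understates the change of low genes, 207 proteases entered the fit and 67 (32.4%) were called higher and 16 (7.73%) lower, beside 43.4% and 5.28% of all genes fitted. The median of all genes was 0.22 there. All 34 proteases called higher with TMM were above 0 on both other scales, while of the 37 called lower 4 were above 0 with library totals and 9 on FPKM.

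**Figure D4:**
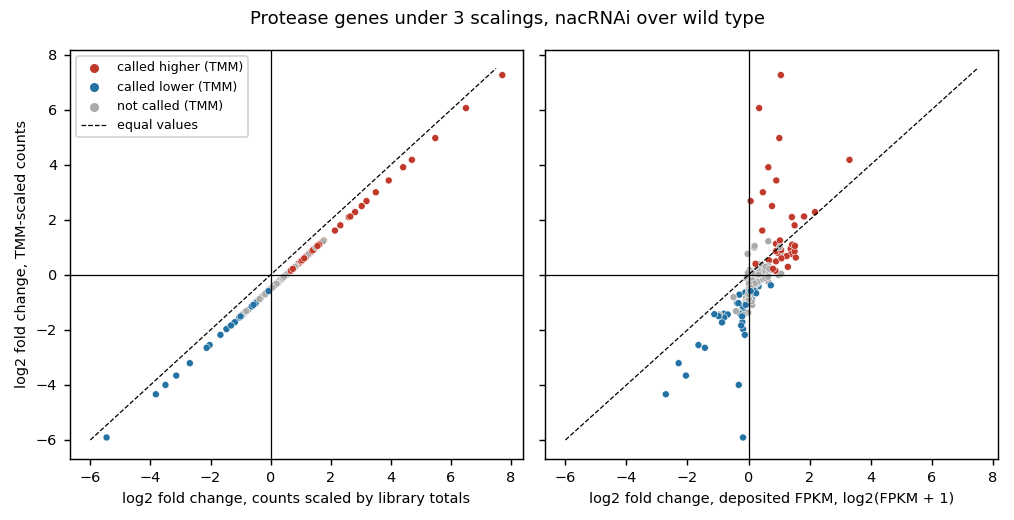
Log2 fold change of each protease gene, nacRNAi over wild type, with TMM scaling (vertical axis) against library totals (left panel, horizontal axis) and against log2(FPKM + 1) (right panel, horizontal axis), coloured by the call with TMM, with a dashed line of equal values. Library totals move every gene up by about the same amount, and on FPKM 9 of the 37 blue points lie to the right of 0.

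Of the 71 calls, 31 held in every alternative fit, 20 higher and 11 lower. A call also counted as not held where a fit left the gene out. The fits with at least 1 CPM or at least 0.5 FPKM in 3 libraries each held 105 proteases, beside 145 in the main fit. The fits include library totals and the 3 FPKM settings, where 84.9% to 89.5% of all called genes were higher, beside 49.2% with TMM. Fewer lower than higher calls held, and the cause was not tested. The share of all genes' calls that held is not given here. By class the higher calls that held were 5 subtilisin-like proteases, 5 carboxypeptidases, 4 aspartic proteases, 4 cysteine proteases and 2 metacaspases, Zm00001d047211 and Zm00001d010675. The lower ones were 6 aspartic proteases, 4 carboxypeptidases and the vacuolar-processing enzyme beta-isozyme Zm00001d002824. No lower call of a cysteine, subtilisin-like or metacaspase gene held in all of them.

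Genes that act beside these proteases were taken by description in 5 further lists, to be read beside the 47.3% of all tested genes called (23.2% higher, 24.0% lower) and, with library totals, the 50.5% called higher and 9.00% lower. Protease inhibitors, of which 35 of 59 were tested, had 7 calls higher and 17 lower, 68.6% of those tested (median log2 fold change -0.33), or 11 each way with library totals. Their summed level was 7206 to 8473 CPM in wild type and 3478 to 3863 CPM in nacRNAi. The words of this list also took in genes described as inter-alpha-trypsin inhibitor heavy chain-related, as proteinase inhibitor propeptide or as seed storage family. Whether these genes code for protease inhibitors was not tested. One gene of the subtilisin-chymotrypsin inhibitor CI-1B (Zm00001d035680), an inhibitor of serine proteases in cereal grain, had 1232, 1435 and 1306 CPM against 116, 135 and 145 CPM (log2 fold change -3.33 with SE 0.11 and adjusted p = 1.52e-06 in edgeR). Another gene of that description (Zm00001d035681) was more abundant and fell less, from a mean of 2885 CPM to 1432 CPM (log2 fold change -1.01). A kunitz trypsin inhibitor (Zm00001d002960) fell from 14.0, 12.3 and 16.2 CPM to 0.121, 0.028 and 0.0139 CPM (adjusted p = 2.65e-05 in edgeR). A Bowman-Birk type inhibitor (Zm00001d003306) fell from 4.70, 3.83 and 2.77 CPM to 0.0362, 0.00 and 0.0279 CPM (adjusted p = 4.94e-05 in edgeR). The 7 higher calls included Cysteine proteinase inhibitor 5 (Zm00001d049111, log2 fold change 5.44) and cystatin3 (Zm00001d038558, 2.94). Their means in nacRNAi were 4.70 and 2.79 CPM.

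Autophagy genes had 2 calls higher and 12 lower among 31 tested of 39, or 45.2%, close to the share of all genes (median -0.26), and 14 higher and 5 lower with library totals. ATG8, the small protein that coats autophagosome membranes, had 5 tested genes, of which 3 were called lower and none higher. The most abundant, Zm00001d049405, fell from 367, 361 and 327 CPM to 73.6, 77.2 and 63.8 CPM (log2 fold change -2.30 with SE 0.09 and adjusted p = 2.99e-06 in edgeR). The others were Zm00001d024239 (log2 fold change -2.15, adjusted p = 2.34e-06 in edgeR) and Zm00001d002257 (-1.22, adjusted p = 2.5e-05 in edgeR).

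Cell death regulators had 10 calls in each direction among 40 tested of 49, or 50.0%, near the share of all genes (median 0.10), and 24 higher and 1 lower with library totals. A DCD (development and cell death) domain gene (Zm00001d037519) rose from 1.17, 1.35 and 0.987 CPM to 6.62, 6.79 and 4.83 CPM (log2 fold change 2.37 with SE 0.21 and adjusted p = 9.49e-05 in edgeR). A second DCD gene (Zm00001d034867) and a gene related to hypersensitive-response lesions (Zm00001d027680) rose by log2 fold changes of 0.79 and 0.81 (adjusted p = 7.23e-05 and 0.000136 in edgeR). Other peptidases had 20 calls higher and 23 lower among 88 tested of 110, or 48.9%, about the share of all genes (median -0.05), and 53 higher and 8 lower with library totals. The chloroplast protease FTSH 6 (Zm00001d037232) fell from 11.8, 9.79 and 9.15 CPM to 0.0964, 0.014 and 0.153 CPM (log2 fold change -6.83 with SE 0.46 and adjusted p = 5e-05 in edgeR). The signal peptidase subunits Zm00001d013642 and Zm00001d021401 fell by log2 fold changes of -0.88 and -0.98 (adjusted p = 2.44e-05 and 4.87e-05 in edgeR), the former standing at 0.00 on FPKM. Of 12 genes of the same protease families under other names 3 were tested. The subtilase Zm00001d012655 was called higher (1.12, adjusted p = 0.0004 in edgeR), the subtilase Zm00001d050092 lower (-0.58, adjusted p = 0.0168 in edgeR, but 0.54 on FPKM) and the aleurain gene Zm00001d005828 was not called (-0.24, adjusted p = 0.483 in edgeR).

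**Figure D5:**
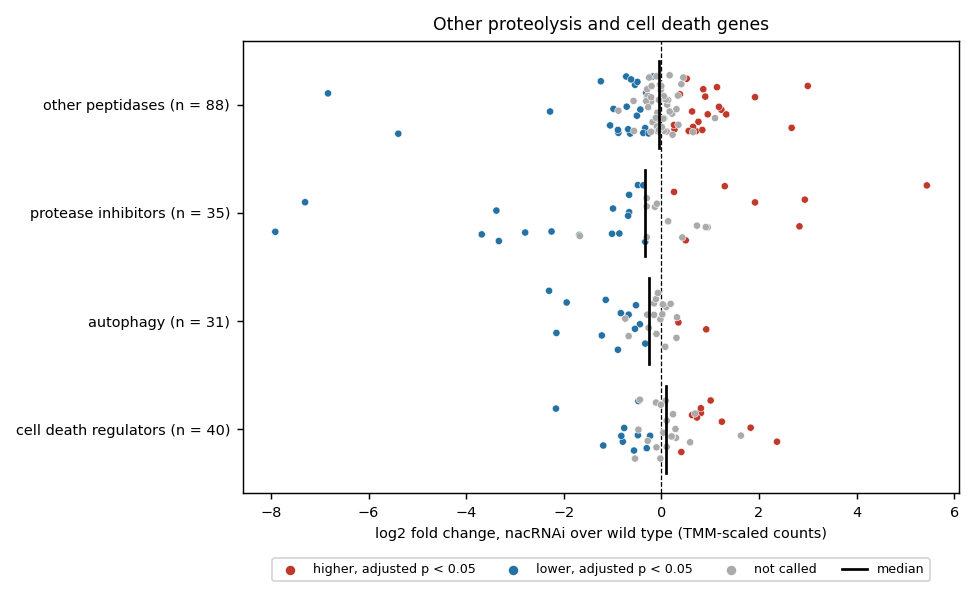
Log2 fold change of nacRNAi over wild type (horizontal axis, TMM-scaled counts, edgeR) for the tested genes of 4 further lists, coloured as called higher, called lower or not called, with a black bar at the median. Protease inhibitors and autophagy genes have more blue than red points (17 against 7 and 12 against 2), and cell death regulators have 10 of each.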

How the data were processed

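Endosperm RNA was sequenced in 3 wild-type and 3 nacRNAi libraries, built from mRNA with TruSeq reagents, per the labels' protocols. The authors deposited a table of gene counts and a table of FPKM for 39179 genes. Neither aligner, counter, strand setting nor genome build is given in the sources used here. Coordinates are as the deposited table lists them. In each library 253 to 280 genes with a count of 0 have a deposited FPKM above 0. The reverse also occurs. The zein gene Zm00001d019155 has 957988 to 1353318 counts but a deposited FPKM of 0 in all 6 libraries. Another zein gene, Zm00001d035760, has 4250404 and 3881925 counts and an FPKM of 0 in wild-type libraries 1 and 2, but 99367 FPKM in wild-type library 3. The number of such genes is not given here.

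Counts were filtered by filterByExpr, scaled by TMM (factors 0.806 to 0.872 in wild type, 1.183 to 1.214 in nacRNAi) and tested over all genes with edgeR 4.0.16 (robust quasi-likelihood, line as the only term) in R 4.3.3. The SE of a log2 fold change is approximate, its size over the square root of edgeR's F. DESeq2 1.42.0 and limma 3.58.1 were alternatives. An exact permutation test of 3 against 3 libraries cannot go below p = 0.1, and none is reported. A planned count of a promoter word was not run, since no promoter sequences were used here. The fit was checked on simulated counts. Depth limits low genes: 3 counts, taken as a conventional upper bound for a count of 0, are 0.0362 to 0.0625 CPM. This bound covers counting error only.

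The protease genes, the further lists and the tests were chosen with earlier results of these data known. Genes named by rule are every tested metacaspase and vacuolar-processing gene and the 3 genes of each other class with the highest mean FPKM. They include the 6 largest called rises and falls without overlap and with at least 5 CPM in the higher line. The rule adds the 3 smallest adjusted p of each further list, and NAC130 and NAC128, whose identities rest on knowledge of the study. Any other gene named was added with its values known. Replicate numbers do not pair the libraries (correlations of deviations 0.011, -0.049 and -0.103). No library pair agreed within sampling noise (chi-square per degree of freedom 24.4 to 47).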

Additional observations from a re-analysis of the deposited data

How the results depend on the processing

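The 34 higher and 37 lower protease calls became 57 and 19 with library totals, 67 and 16 with limma on log2(FPKM + 1), 68 and 16 on log2(FPKM + 0.1), 56 and 13 on log2(FPKM + 1) with at least 0.5 FPKM in 3 libraries, and 22 and 24 at adjusted p under 0.01. The replicate block gave 29 and 30. Leaving out 1 library gave 28 to 33 and 28 to 34. DESeq2, its size factors, TMM without zein genes, other count filters, the removed length trend and a narrower membership kept both counts within 1.5 times. The signs of 13 named genes turned in some settings. With library totals and then on FPKM (the 3 FPKM settings), log2 fold changes were 0.45 and 0.40 to 0.56 for Zm00001d010672, 0.44 and 0.64 to 0.82 for Zm00001d052433, 0.19 and 0.28 to 0.32 for Zm00001d017399, 0.13 and 0.73 to 0.75 for Zm00001d030172, 0.28 and 0.64 to 0.65 for Zm00001d006364, 0.09 and 0.33 for Zm00001d016446, 0.27 and 0.25 to 0.43 for Zm00001d005828, and 0.35 and 0.54 to 0.55 for Zm00001d040189. On FPKM alone they were 0.18 to 0.29 for Zm00001d029980, 0.54 to 0.66 for Zm00001d050092 and 0.00 for Zm00001d013642. Without the length trend they were 0.20 for Zm00001d052433, 0.05 for Zm00001d006364 and -0.07 for Zm00001d039043, which was at -0.00 with at least 1 CPM in 3 libraries. Leaving out 1 library turned Zm00001d010672 (-0.19 to 0.11), Zm00001d052433 (-0.26 to 0.06), Zm00001d034112 (down to -0.17) and Zm00001d039043 (-0.03 to 0.04). The cause was not tested.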
